A study of Homo sapiens with 9 samples.

Results

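Ribosome footprints of 10 genes of the transforming growth factor β (TGF-β) pathway were examined in Huh7 cells, a human hepatocellular carcinoma line, treated with PF8503 or PF846. The genes are TGFBI, LTBP1, LTBP3, LTBP4, TGFB1, TGFB2, TGFBR1, TGFBR2, SMAD3 and SMAD4. They were chosen by name with measured results in view: TGFBI and LTBP3 for the low log2 ratios of their footprint means with compound over vehicle, the others as partners of these in the same pathway. Of the 10 genes, 9 have a value in both deposited tables, which list 9157 transcripts for PF8503 and 8839 for PF846, with 8775 in common. LTBP4 is in neither table.

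The 9 libraries fall into 3 conditions of 3 biological replicates each: 1.5 μM PF-06378503 (PF8503), 1.5 μM PF-06446846 (PF846, whose code is spelled differently among the labels) and 0.5% DMSO as the vehicle, all for 1 hr. All cells were rinsed and lysed with cycloheximide, which arrests elongating ribosomes. The tables give 1 mean per condition and transcript, in read counts divided by size factors (normalized counts), so the depth per library is unknown. The replicates are numbered differently in the labels and in the study's own code, so which libraries entered each mean is not certain. The tables hold no values of single libraries, so no spread between replicates or interval could be computed from them. The authors' own test columns were not used, and every difference given here is a description of their means, with no test. By the library names, no lane held more than 1 condition, so that an effect of the lane and one of the compound cannot be told apart. Without matched RNA-seq, fewer ribosomes per mRNA and less mRNA cannot be told apart. In a bulk lysate, neither can fewer cells that express a given gene and less of its RNA per cell. As a check of the labelled cell type, 8 of 8 hepatocyte markers are in both tables, with vehicle means of 1296 or more in the PF8503 table. Of 7 fibroblast and stellate cell markers, 1 is in the PF8503 table and 2 are in that for PF846, the highest at 85.2, and COL1A1, COL1A2 and PDGFRB are in neither. Of 4 endothelial markers only PECAM1 is in the tables, at 170.03 with vehicle in that for PF8503, and of 4 leukocyte markers CD68 and LYZ are, without PTPRC. These last had vehicle means from 889 to 7769 in that table, so that the higher one stood above the lowest hepatocyte marker.

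TGF-β is secreted in a latent form, in which its own propeptide holds the mature cytokine. Latent TGF-β binding proteins (LTBPs) are bound to this propeptide through disulfide bonds and anchor it to fibrillin-rich matrix, from which integrins and proteases release it. The free ligand brings together the type II and type I receptors, TGFBR2 and TGFBR1, and the activated type I receptor phosphorylates SMAD3, which enters the nucleus with SMAD4. TGFBI is a secreted matrix protein with fasciclin domains that binds collagens and integrins, and is itself named for its induction by TGF-β. In the liver the pathway is known for its part in fibrosis and in growth arrest of hepatocytes. PF8503 and PF846 are related compounds that bind in the exit tunnel of the ribosome and act on nascent chains, so the first codons of each coding sequence are shown here for the members with low ratios and for secreted or membrane members without them.

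The first 40 codons of 6 members are given 5′ to 3′ on the coding strand (GENCODE version 44, GRCh38). Capitals mark the 15 codons whose residues have the highest mean Kyte-Doolittle hydropathy within these 40, a stretch that in secreted and membrane proteins usually falls in the signal peptide. The bases of TGFBI lie in exon 1 at chr5:136029056-136029175, those of LTBP3 in exon 1 at chr11:65557840-65557959 on the reverse strand, those of LTBP1 in exon 1 at chr2:32947325-32947444. Those of TGFB1 lie in exon 1 at chr19:41352925-41353044 on the reverse strand, those of TGFB2 in exon 1 at chr1:218346702-218346821, and those of TGFBR1 run from exon 1 into exon 2 between 99105206 and 99128877 on chromosome 9.
TGFBI: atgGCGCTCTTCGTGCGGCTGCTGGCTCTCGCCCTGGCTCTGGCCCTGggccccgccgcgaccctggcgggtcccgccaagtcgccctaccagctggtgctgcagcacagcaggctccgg
LTBP3: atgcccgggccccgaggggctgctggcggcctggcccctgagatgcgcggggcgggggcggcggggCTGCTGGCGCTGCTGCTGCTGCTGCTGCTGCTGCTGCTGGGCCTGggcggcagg
LTBP1: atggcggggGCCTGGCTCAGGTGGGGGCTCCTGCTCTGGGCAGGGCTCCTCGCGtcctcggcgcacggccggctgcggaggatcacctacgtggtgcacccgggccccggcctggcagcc
TGFB1: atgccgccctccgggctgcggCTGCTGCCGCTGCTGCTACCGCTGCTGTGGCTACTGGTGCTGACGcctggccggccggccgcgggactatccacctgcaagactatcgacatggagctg
TGFB2: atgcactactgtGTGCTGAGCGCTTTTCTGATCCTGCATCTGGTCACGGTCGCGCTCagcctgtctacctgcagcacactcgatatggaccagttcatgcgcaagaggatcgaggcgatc
TGFBR1: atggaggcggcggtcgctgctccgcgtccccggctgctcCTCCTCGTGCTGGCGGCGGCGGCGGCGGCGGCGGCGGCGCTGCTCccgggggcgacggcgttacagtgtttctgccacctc

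TGFBI (ENSG00000120708, chr5:136028988-136063818, 17 exons, 683 codons) was lower with both compounds. The authors' mean was 2311 normalized counts with vehicle and 1086 with PF8503, and in the table for PF846 it was 2115 with vehicle and 1399 with PF846. The mean with PF8503 was therefore 47.0% of vehicle, a log2 ratio of -1.09, and the mean with PF846 was 66.1% of vehicle, a log2 ratio of -0.60. These were number 18 from the lowest of 9157 and number 28 from the lowest of 8839. Both values lay below the central 95% of transcripts in the same quartile of vehicle mean, which ran from -0.29 to 0.18 with PF8503 and from -0.14 to 0.12 with PF846. TGFBI was among the members with more footprints per length. It had 3.49 normalized counts per codon (coding length less the codons left out at both ends) with vehicle in the PF8503 table, rank 1699. Such a level is too low where only a later part of the coding sequence was counted, which was not determined for this gene. The translated coding sequence of TGFBI holds 1 arginine-glycine-aspartate motif, the kind of site by which many matrix proteins bind integrins. It lies at residue 642, among the last residues to be made.

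**Figure D1:**
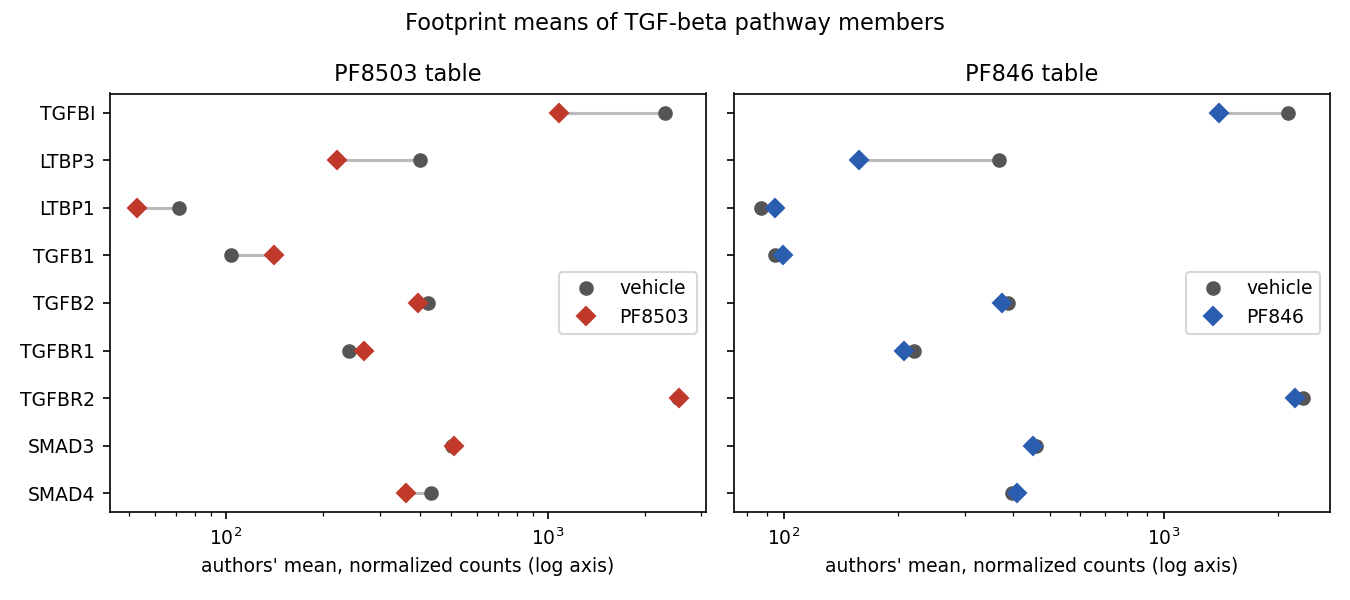
Authors' means of the 9 members with a value, in normalized counts on a log axis, with vehicle as grey circles and the compound as diamonds joined to it by a line; the PF8503 table is on the left and the PF846 table on the right. In both panels the widest gaps to the left of vehicle are those of TGFBI and LTBP3.

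LTBP3 (ENSG00000168056, chr11:65538559-65558930, reverse strand, 28 exons, 1303 codons), which secures latent TGF-β in the matrix, was also lower with both compounds. The authors' mean was 401 normalized counts with vehicle and 220.4 with PF8503, and in the table for PF846 it was 367 with vehicle and 158 with PF846. With PF8503 this is 55.0% of vehicle, a log2 ratio of -0.86 and number 32 from the lowest. With PF846 it is 43.1% of vehicle, a log2 ratio of -1.22 and number 8 from the lowest. The central 95% of transcripts in its quartile ran from -0.25 to 0.22 with PF8503 and from -0.23 to 0.18 with PF846. At 0.312 normalized counts per codon with vehicle in the PF8503 table, its level per length was below 10% of that of TGFBI. The part of each coding sequence that was counted was not determined, which limits this comparison.

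LTBP1 (ENSG00000049323, chr2:32946953-33399509, 1721 codons), the LTBP whose binding to latent TGF-β1 is best known, did not share the low value with PF846. In the PF846 table the authors' mean was 86.9 normalized counts with vehicle and 94.8 with the compound, a log2 ratio of 0.13. In the PF8503 table it was 71.2 with vehicle and 52.8 with the compound, a log2 ratio of -0.43. This PF8503 value lay below the central 95% of its quartile, which started at -0.38. The PF846 value lay within the range of its own quartile. The same vehicle libraries enter both tables, and their means stood in a constant ratio of 1.09 for 98.5% of the 8775 shared transcripts (within 0.002 on the log2 scale). For LTBP1 the vehicle reads counted in the PF8503 table came to 75.0% of those expected from that ratio, so fewer codons were counted there. The 2 values of LTBP1 therefore cover different codons and were not set against each other. By the authors' rule, a shortened region starts past the codon with the largest cumulative difference from vehicle. That codon was picked from these same data, so the PF8503 value of LTBP1 is not like for like with its quartile. The level of LTBP1 was the lowest of the members, at 0.0511 normalized counts per codon with vehicle in the PF846 table. LTBP4 (ENSG00000090006, chr19:40592883-40629818), the third LTBP listed, has no value, and its level cannot be placed. LTBP3 shares 48.2% of 1196 aligned residues with LTBP1 and 44.4% of 1151 with LTBP4.

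The ligands did not share the low values. TGFB1 (ENSG00000105329, chr19:41301587-41353922), which encodes the principal TGF-β, had authors' means of 104 normalized counts with vehicle and 141 with PF8503, a log2 ratio of 0.45, and of 94.9 with vehicle and 99.4 with PF846, a log2 ratio of 0.068. The PF8503 value lay above the central 95% of its quartile, which reached 0.37 in transcripts of low count, and was number 33 from the highest; the PF846 value lay within its quartile's range. TGFB2 (ENSG00000092969, chr1:218345336-218444619), a ligand active in development and fibrosis, had means of 426 with vehicle and 395 with PF8503 and of 389 with vehicle and 375 with PF846. Its log2 ratios of -0.11 and -0.053 both lay within the central range. Per codon, TGFB2 stood at 1.08 normalized counts with vehicle in the PF8503 table and TGFB1 at 0.280.

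The receptors stayed close to vehicle. TGFBR2 (ENSG00000163513, chr3:30606601-30694142), the ligand-binding receptor kinase, had the highest level of the members, at 4.63 normalized counts per codon with vehicle in the PF8503 table. Its means were 2531 with vehicle and 2553 with PF8503, a log2 ratio of 0.013, and 2316 with vehicle and 2214 with PF846, a log2 ratio of -0.065. TGFBR1 (ENSG00000106799, chr9:99104038-99154192), the kinase that acts on the SMADs, had means of 241 with vehicle and 268 with PF8503, a log2 ratio of 0.15, and of 220.3 with vehicle and 207 with PF846, a log2 ratio of -0.088. All 4 receptor values lay within the central 95% of their quartiles.

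The signal transducers SMAD3 and SMAD4 gave small ratios too. SMAD3 (ENSG00000166949, chr15:67063763-67195173) had means of 504 with vehicle and 509 with PF8503 and of 462 with vehicle and 453 with PF846, with log2 ratios of 0.013 and -0.027. SMAD4 (ENSG00000141646, chr18:51028528-51085045), the partner that SMAD3 needs for most of its transcriptional work, had means of 434 with vehicle and 363 with PF8503, a log2 ratio of -0.26 just below its quartile's lower limit of -0.25. With PF846 its means were 397 with vehicle and 409 with the compound, a log2 ratio of 0.044.

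**Figure D2:**
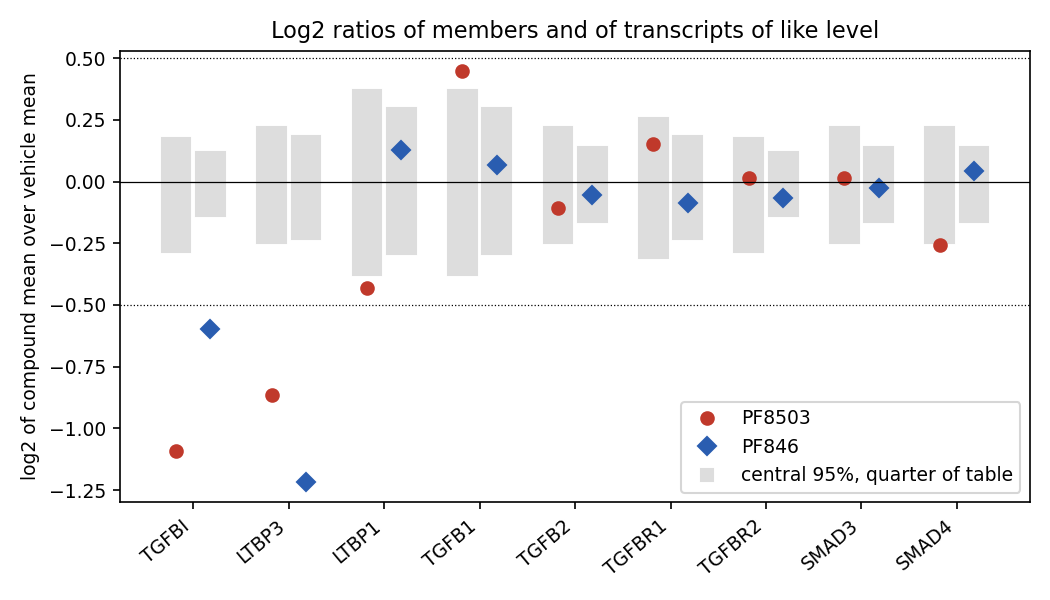
Log2 of the compound mean over the vehicle mean for the 9 members, with PF8503 as red circles and PF846 as blue diamonds; grey boxes are the central 95% of transcripts in the same quartile of vehicle mean, and dotted lines mark 0.5 in either direction. TGFBI and LTBP3 lie below the lower dotted line with both compounds, and TGFB1 and SMAD4 lie outside their boxes with PF8503 alone. LTBP1 lies below its box with PF8503 and within it with PF846. The LTBP1 values cover different codons and are not comparable between the compounds. The PF8503 value, counted over a shorter region picked from these same data, is not like for like with its box.

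A ratio at or past 0.5 on the log2 scale was used as a mark of size. With PF8503, 2 of 9 members were past it downward, TGFBI and LTBP3, where 1.08% of the whole table was, and 0 of 9 upward, where 0.24% was. With PF846 the same 2 of 9 were past it downward against 0.396% of the table, and 0 of 9 upward against 0.0792%. These counts come from the contrasts on which the members were chosen, so nothing is read from them. The other 7 members had a median log2 ratio of 0.013 with PF8503, where that of the table was also 0.013, and of -0.027 with PF846, where that of the table was 0.00086. They ranged from -0.43 to 0.45 with PF8503 and from -0.088 to 0.13 with PF846.

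The compounds were applied at the same dose and time, and 8 members were counted over the same region in both tables, as far as the vehicle means show. For TGFBI the log2 ratio was lower with PF8503 by 0.49 (PF8503 minus PF846, -0.49), so that its mean relative to vehicle was 71.0% of that with PF846. For LTBP3 the order was the other way, with a difference of 0.35 and a mean relative to vehicle that was 128% of that with PF846. Over the 8641 transcripts with the same region, the central 95% of such differences ran from -0.25 to 0.26. TGFBI, LTBP3, TGFB1 (0.38) and SMAD4 (-0.30) lay outside this range, while TGFBR1 (0.24), TGFBR2 (0.078), SMAD3 (0.040) and TGFB2 (-0.053) lay within it. This range was not matched to the level of a transcript. TGFB1 is in the lowest quartile of vehicle mean, where the ratios to vehicle spread most widely with both compounds. Of the 8641 transcripts, 0.347% had a lower difference than TGFBI and 99.3% a lower one than LTBP3. No difference between the compounds could be tested for any of the 8 members, since the tables hold no single libraries, and the shared vehicle enters both ratios.

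**Figure D3:**
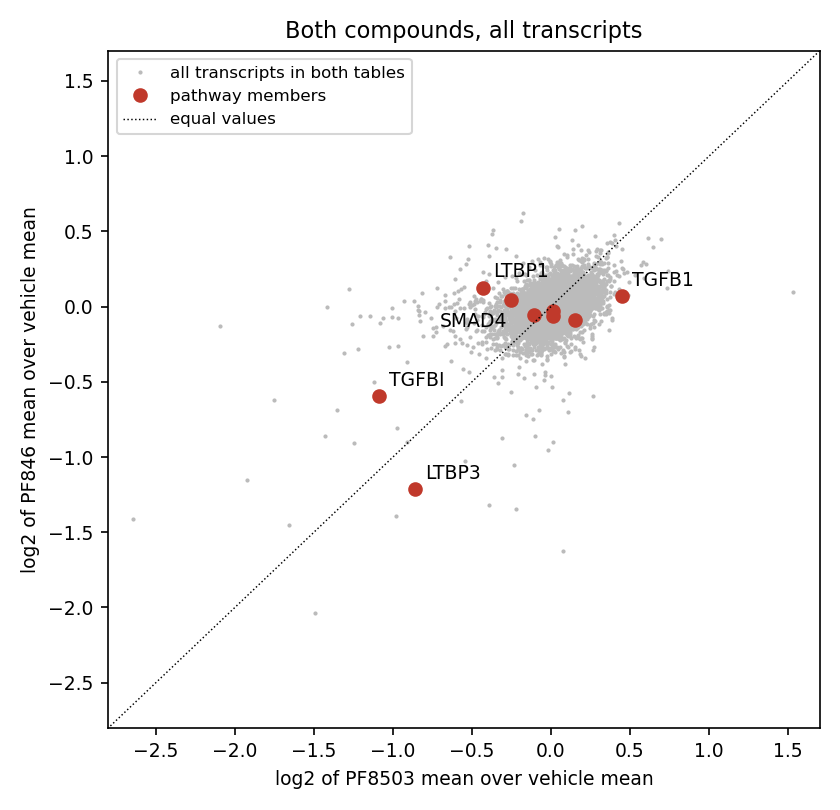
Log2 ratio to vehicle with PF8503 (horizontal axis) and with PF846 (vertical axis) for the 8775 transcripts in both tables, in grey, and the 9 members, in red; the dotted line marks equal values. TGFBI lies above the line and LTBP3 below it, both away from the dense centre that holds most members.

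The transcripts nearest to TGFBI in this plane, among 7906 with a vehicle mean of at least 100 in both tables, were PODXL2 at a distance of 0.099, CD99 at 0.24 and DAD1 at 0.28. PODXL2 and CD99 encode cell surface glycoproteins and DAD1 a subunit of the oligosaccharyltransferase. Nearest to LTBP3 were RPL27, a ribosomal protein, at 0.21, USO1, a Golgi tether, at 0.32 and BRI3BP at 0.37. RPL27 resembled LTBP3 in being lower with PF846 (-1.39) than with PF8503 (-0.98). Likeness here rests on 2 values per transcript. For PODXL2, DAD1, USO1 and BRI3BP the regions counted in the tables differed.

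The wider pathway was taken from lists that together name 150 gene symbols, members included, of which 76 have a value in each table. CTGF and CCN2, CYR61 and CCN1, and HFE2 and HJV are pairs of symbols for the same gene. The listed totals therefore count somewhat more symbols than genes. Without the members, 67 genes were left, and 1 of them was at or past 0.5 downward with PF8503 and 0 upward. The 1 gene was SMURF2, a ubiquitin ligase that limits receptor and SMAD levels. Its log2 ratio was -0.54, from a vehicle mean of only 70.8 normalized counts to 48.7. With PF846 it stood at -0.15, and 0 of the 67 were past the mark in either direction. The median log2 ratio of the 67 was 0.015 with PF8503 and 0.0032 with PF846, beside 0.013 and 0.00086 over the tables.

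Among matrix proteins of the fibrillin and LTBP family, 7 of 18 listed genes have a value. FBLN1, which encodes fibulin-1, had the highest level per codon, at 4.86 with vehicle in the PF8503 table, with log2 ratios of 0.11 with PF8503 and 0.067 with PF846. MFAP2, a microfibril glycoprotein, came next at 0.998 per codon and had log2 ratios of -0.49 and -0.27. FBN1, the fibrillin that LTBPs attach to, had ratios of -0.027 and 0.16. LTBP3 was the only 1 of the 7 past the mark, with both compounds. It was chosen for its low ratios, and without the members 0 of 5 were past the mark. Others of the list were low though short of the mark. With PF8503, 1.08% of the table lay below MFAP2 and 1.41% below LTBP1, which was counted over a shorter region there. With PF846, 1.24% lay below FBLN5, which encodes fibulin-5, and 1.82% below MFAP2. FBLN5 had log2 ratios of 0.078 with PF8503 and -0.29 with PF846. The 7 genes had medians of -0.043 with PF8503 and 0.067 with PF846.

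Of 10 listed fasciclin proteins and integrin partners of TGFBI, 5 have a value, and TGFBI alone was past the mark. Without TGFBI, chosen for its low ratios, 0 of 4 were past it with either compound. ITGB1 had the highest level, 14.6 per codon with vehicle in the PF8503 table, with log2 ratios of 0.016 with PF8503 and 0.017 with PF846. ITGAV, which pairs with it and with other β subunits, stood at 3.23 per codon with ratios of 0.010 and 0.050. Of 16 listed activators, 11 have a value and 0 were past the mark. THBS1, thrombospondin-1, had 8.52 counts per codon and ratios of 0.11 and 0.0022, and BMP1, a protease that processes matrix precursors and LTBP1, had the lowest ratios of this list with PF8503 (-0.36) and PF846 (-0.18).

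Of the other ligands, GDF15 and BMP2 had the highest levels per codon, at 5.89 and 2.99, and log2 ratios of 0.087 and -0.11 with PF8503. Members included, only 5 of 26 listed ligands, 9 of 18 symbols of receptors and co-receptors and 3 of 14 secreted antagonists have a value. After TGFBR2, the receptor with the highest level per codon was ACVR1B, at 0.979, with log2 ratios of 0.028 and 0.046. Among the 5 of 8 SMADs with a value, SMAD3 and SMAD5 had the highest levels, and SMAD5, which serves bone morphogenetic proteins, had ratios of -0.078 with PF8503 and -0.16 with PF846. FSTL3 and TWSG1 led the antagonists, which bind ligands outside the cell. FSTL3 had a log2 ratio of 0.31 with PF8503, and the 3 antagonists had medians of 0.23 with PF8503 and 0.076 with PF846.

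The intracellular regulators were the best covered list, with 23 of 25 genes and medians of 0.020 with PF8503 and 0.043 with PF846. STRAP, an adaptor that inhibits TGF-β receptor signaling, and BAMBI, a decoy receptor, had the highest levels per codon at 8.08 and 3.83, with log2 ratios of -0.031 and 0.14 with PF8503. Of 24 listed symbols of TGF-β target genes, 14 have a value, and only TGFBI was past the mark, with both compounds. TGFBI was chosen for its low ratios, and without it 0 of 13 were past the mark. CTGF, the connective tissue growth factor, and ID1, an inhibitor of differentiation factors, had the highest levels per codon, at 15.5 and 15.4, with ratios of 0.0095 and 0.034 with PF8503. The median of the target list was -8.6e-05 with PF8503 and -0.029 with PF846.

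**Figure D4:**
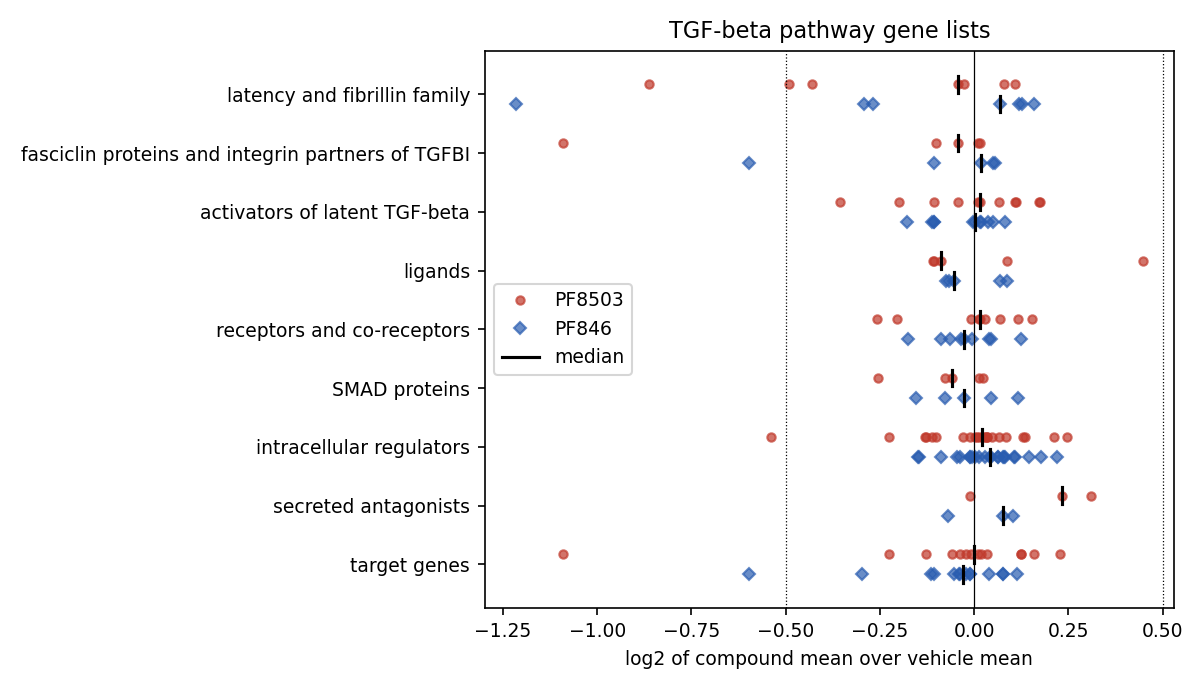
Log2 of the compound mean over the vehicle mean for every measured gene of the 9 lists, with PF8503 as red circles, PF846 as blue diamonds and list medians as black bars; dotted lines mark 0.5 in either direction, and a gene on several lists is drawn in each. Beyond the lower line lie LTBP3, TGFBI (on 2 lists) and, with PF8503, SMURF2.

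The start of the coding sequence was also compared between the members. The choice of members did not use it, but the measure was chosen with earlier results of these data known. The most hydrophobic 15-residue stretch of LTBP3 has 13 leucines, all written CTG in the capitals above, and a mean hydropathy of 3.39, higher than in 99.9% of 9150 matched transcripts. That of TGFBI has 7 leucines and 5 alanines at codons 2 to 16, with a mean of 2.54, higher than in 97.1%. TGFBR1 (2.63), TGFB2 (2.52) and TGFB1 (2.49) are close to TGFBI by this measure, and none of the 3 was past the mark with either compound. LTBP4 has 2.09, LTBP1 1.35 and TGFBR2 1.01, and the cytosolic SMAD3 and SMAD4 have 0.82 and 0.78. The LTBP3 stretch begins at codon 23, later than in the other members.

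**Figure D5:**
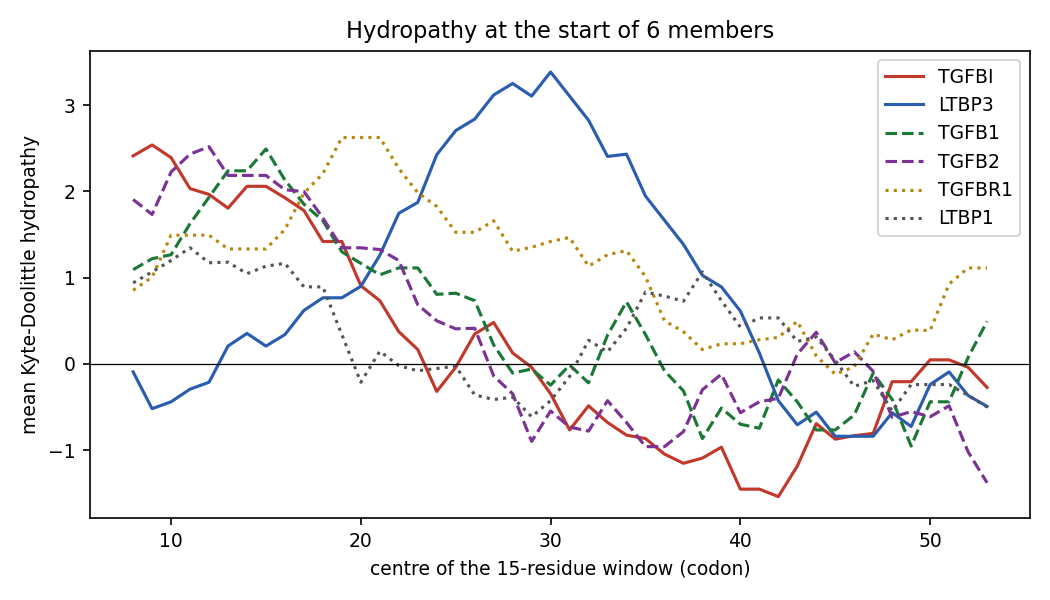
Mean Kyte-Doolittle hydropathy of 15-residue windows along the first 60 codons of 6 members, plotted at the centre of each window. LTBP3 (solid blue) peaks at 3.39 around codon 30, whereas TGFBI, TGFB1, TGFB2 and TGFBR1 peak between 2.49 and 2.63 nearer the start.

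Transcripts with a start at least as hydrophobic as that of TGFBI, a limit set after the values were seen, were counted in the rest of the tables. Without the members, 9 of 254 of them were at or past 0.5 downward with PF8503 and 6 of 244 with PF846. With the members counted, TGFBI and LTBP3 among them, the shares were 4.28% with PF8503 and 3.24% with PF846. These 2 genes were chosen for low ratios and TGFBI sets the limit, so nothing is read from these shares. Over all matched transcripts, members included, the shares were 1.06% and 0.399%. The median log2 ratio with such a start, members included, was 0.034 with PF8503 and -0.020 with PF846. Over all matched transcripts it was 0.013 and 0.00081. Among transcripts below the median of this measure the counts were 27 of 4543, or 0.594%, and 3 of 4390, or 0.0683%. Over all matched transcripts without the members they were 94 of 9079 with PF8503 and 33 of 8764 with PF846. Most transcripts with such a start, TGFBR1 among them, had ratios short of the mark, as had most transcripts of either table. A relation between such a start and the ratios was not tested.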

How the data were processed

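Ribosome-protected fragments of 9 Huh7 libraries were sequenced. The authors removed adapters and ribosomal RNA reads, aligned the rest with Bowtie to canonical coding transcripts (GENCODE version 24, GRCh38) and kept reads with 1 position. They summed reads 3′ of DMax, the codon with the largest cumulative difference from vehicle, where its Z score was at least 2. Elsewhere they summed from 10 codons after the start, and in all cases left out the last 10 codons and transcripts with 30 counts or fewer. The authors normalized these sums with DESeq, and the deposited signal values are the mean, per transcript and condition, of the sums divided by size factors. Where reads 3′ of DMax were summed, a ratio compares ribosomes past that codon and the level per codon is too low. Among the members the counted region differed between the tables for LTBP1 alone, and which members were summed from a DMax common to both tables was not determined. The tables also hold the authors' fold changes, their log2 values, p-values and adjusted p-values, which were not used. Versions of these tools are not given in the sources used here.

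Log2 ratios of compound over vehicle were computed from these means, with no pseudocount and no filter. A departure of the vehicle means from their modal ratio by more than 0.002 (log2) was read as another counted region. This step was tried on simulated vehicle means without noise, which cannot show how often it errs in these data. Levels per codon used the coding length less 20 codons. Lengths, coordinates and coding sequences are those of the Ensembl canonical transcript in GENCODE version 44 (GRCh38), which may differ from the authors' transcript. Of 9221 symbols, 9150 gave a coding sequence of at least 40 codons that begins with ATG. Identities come from global alignment (BLOSUM62). The genes named were the members, list genes at or past 0.5 in either table, the 2 with the highest level per codon in each list, and the 3 transcripts nearest to TGFBI and to LTBP3. Further list genes (ITGAV, FBN1, FBLN5, BMP1) were named after their values were seen. The members, lists and measures were chosen with earlier results of these data known, and the hydropathy classes after the values were seen. Python 3.11.15, numpy 2.4.6, pandas 2.3.3, biopython 1.88 and matplotlib 3.10.9 were used.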

Additional observations from a re-analysis of the deposited data

How the results depend on the processing

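The log2 ratios of TGFBI and LTBP3 kept their sign and their side of the mark under pseudocounts of 1 and 10, scaling to totals and centring on the table median. TGFBI ranged from -1.10 to -1.08 with PF8503 and from -0.60 to -0.59 with PF846, and LTBP3 from -0.88 to -0.83 and from -1.22 to -1.17. The difference between the compounds ranged from -0.51 to -0.49 for TGFBI and from 0.33 to 0.36 for LTBP3. Other marks moved the counts by their construction. At 0.25, 4 members were lower and 1 higher with PF8503, and at 1 only 1 was lower with each compound (TGFBI with PF8503, LTBP3 with PF846). In the whole PF8503 table, 387 transcripts were lower and 347 higher at 0.25, and 23 and 1 at 1. In the PF846 table these were 188 and 147 at 0.25, and 11 and 0 at 1. With a vehicle mean of at least 100, 5 were higher with PF8503 and 4 with PF846, and with a pseudocount of 10, 13 and 4. Over all lists, members included, 8 genes were lower and 2 higher with PF8503 and 5 lower with PF846 at 0.25, and 1 was lower with each at 1. SMURF2 was not past the mark with a pseudocount of 10 and did not enter with a vehicle mean of at least 100, and MFAP2 passed it after centring. Leaving out single replicates was not run, since the tables hold none, and no paired analysis was possible because the columns carry no replicate numbers. The low counts of LTBP1, TGFB1 and SMURF2 limit what their ratios can show.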
